A study of Mus musculus with 6 samples.

Results

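Tissue egress and retention genes decide how readily a lymphocyte leaves a tissue, and 8 of them were followed here in cultured brain group 2 innate lymphoid cells (ILC2): S1pr1, S1pr4, Klf2, Foxo1, Cd69, Cd44, Rgs1 and Rgs2. They were taken by symbol from a count table of 24421 rows. All 8 were present, and all 8 passed the filter on low counts. ILC2 live in tissues, lack antigen receptors and release type 2 cytokines. Cells of this kind had been sorted from brains of C57BL/6 mice by their surface markers and were then grown for 2 weeks in medium with 20% FCS and SCF, IL33, IL7 and IL2. In the aged group (3 libraries) the mice were 20 to 22 months old, and in the young group (3 libraries) they were 2 to 3 months old. No allele, transgene or drug is named for either group, and both were cultured with the same cytokines, so every level below is one after culture and not one in the brain.

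Lymphocytes leave tissues along a gradient of sphingosine-1-phosphate (S1P), a lipid that is high in blood and lymph and low inside tissues. S1PR1 is the receptor that senses this gradient. The transcription factor FOXO1 drives expression of Klf2, and KLF2 in turn drives S1pr1. CD69 acts the other way: it binds S1PR1 in the membrane and takes it off the cell surface, which is why it marks resident lymphocytes. RGS1 and RGS2 shorten the signals of G protein-coupled receptors, and CD44 holds cells to the hyaluronan of the tissue matrix. These relations were worked out mainly in T cells and are given as background.

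The 6 libraries held 16477157 to 20804291 counts. Levels are given in CPM, each count divided by the size of its library, after trimmed mean of M values (TMM) scaling, which sets libraries on a common scale. Changes are log2 ratios of aged over young from the quasi-likelihood test of edgeR, adjusted by Benjamini-Hochberg over all 11805 tested genes, at a threshold of 0.05. Whether each library stands for its own mice or its own culture is left unsaid in the labels. The p-values therefore cover the spread between these libraries, which may be technical. Summed ILC2 markers stood at 4962 to 6964 CPM in aged and 7257 to 9020 CPM in young libraries, and none of the 10 was at 0 in all 6 libraries. Il17rb, a receptor for IL-25, was the lowest of them, at 0 to 4.17 CPM in aged and 6.96 to 18.9 CPM in young libraries. Il5 was the largest part of the sum, and the markers went different ways. Mean levels in aged and young libraries were 190.6 and 411.7 CPM for Gata3 and 275.8 and 487.8 CPM for Il1rl1. Thy1 (142.8 and 64.92 CPM) and Areg (544.2 and 435.2 CPM) were higher in aged libraries. Among other lymphocytes, Cd3e, Cd4, Cd8a, Cd5, Eomes, Tbx21, Ncr1 and Ms4a1 had 0 counts in the 6 libraries. The counts are of bulk RNA, in which fewer cells carrying a transcript and less transcript per cell cannot be told apart.

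Of the 8 genes, 2 fell in aged cultures and 0 rose at an adjusted p under 0.05 in edgeR. S1pr1 and Foxo1 were the 2 that fell. Across all tested genes 8.14% were lower and 11.2% higher by the same rule, 19.4% in all, so 2 of 8 is too near the background to be a result about the group. At an unadjusted p under 0.05 in edgeR 4 were lower and 0 higher, DESeq2 called 2 lower and 0 higher, and limma-voom called 3 lower and 0 higher. The median log2 change of the 8 was -0.48, against -0.10 over all tested genes. In 3 of them, S1pr1, Foxo1 and Cd69, the 3 aged libraries lay wholly below the 3 young ones, where 18.8% of all tested genes did so and 38.2% did not overlap in either direction.

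**Figure D1:**
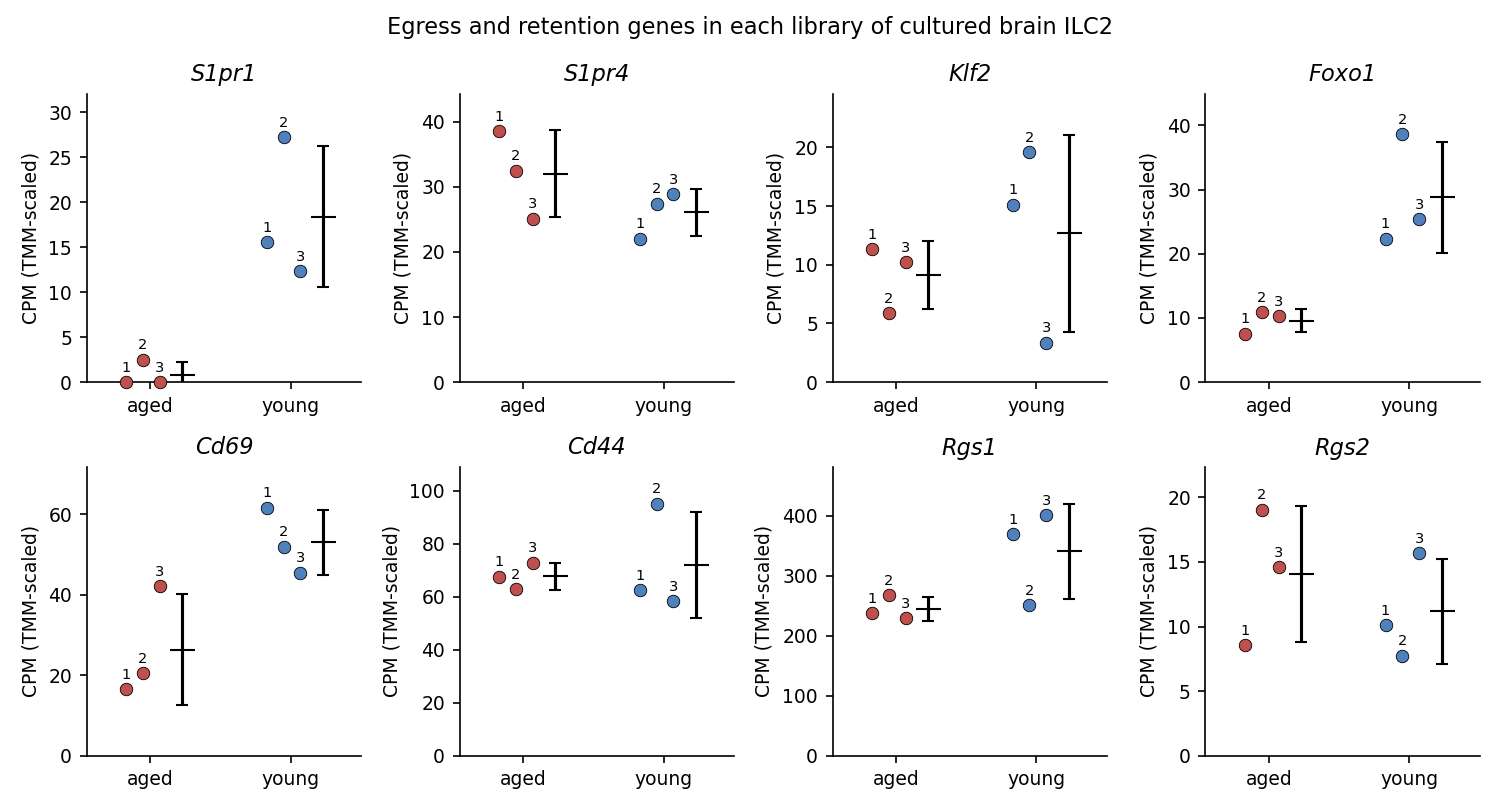
Each panel plots the TMM-scaled CPM of a gene in the 3 aged (red, left) and 3 young (blue, right) libraries, with library numbers above the points and the mean ± SD as a bar. S1pr1, Foxo1 and Cd69 are lower in each aged library than in each young one, and the groups overlap in the other panels.

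**Figure D2:**
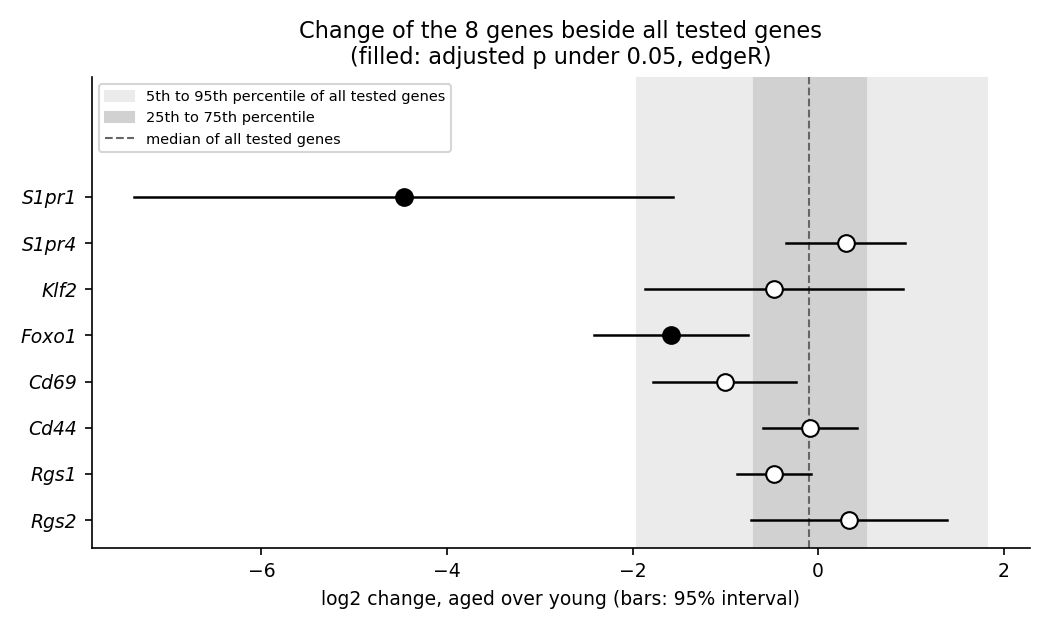
The log2 change of aged over young is plotted for each of the 8 genes with its 95% interval, filled where the adjusted p is under 0.05. The S1pr1 point at -4.47 lies outside the grey band of the 5th to 95th percentile of all tested genes (-1.95 to 1.82), and the Foxo1 point at -1.59 lies inside it.

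The gene start regions of Foxo1, Klf2 and S1pr4 are shown first because Foxo1 fell while Klf2 and S1pr4 did not pass the test. Each is the 250 bases before the RefSeq start on GRCm38.p6, read along the gene's own strand, at chr3:52268087-52268336 (plus strand), chr8:72318812-72319061 (plus strand) and chr10:81500138-81500387 (minus strand). Capitals mark the letters CACCC or their reverse complement GGGTG, the core of sites bound by KLF factors.
Foxo1: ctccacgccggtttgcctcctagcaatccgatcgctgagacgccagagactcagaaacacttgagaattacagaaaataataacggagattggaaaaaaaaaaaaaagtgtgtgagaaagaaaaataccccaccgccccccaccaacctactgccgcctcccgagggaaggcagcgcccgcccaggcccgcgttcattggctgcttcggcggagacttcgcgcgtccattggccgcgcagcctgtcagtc
Klf2: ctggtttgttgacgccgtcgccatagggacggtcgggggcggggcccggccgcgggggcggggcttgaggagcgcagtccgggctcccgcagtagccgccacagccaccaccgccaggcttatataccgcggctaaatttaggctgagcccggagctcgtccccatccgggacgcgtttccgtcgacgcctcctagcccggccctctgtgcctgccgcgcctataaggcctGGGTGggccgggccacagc
S1pr4: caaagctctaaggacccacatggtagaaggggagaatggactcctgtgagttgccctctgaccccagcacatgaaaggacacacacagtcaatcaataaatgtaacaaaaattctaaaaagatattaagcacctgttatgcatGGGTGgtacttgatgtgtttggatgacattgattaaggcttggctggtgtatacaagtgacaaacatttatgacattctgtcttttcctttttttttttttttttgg
The Klf2 and Foxo1 regions are rich in CpG, with 29 and 20 CpG in 250 bases, against a median of 6 over the 32851 regions of this length in the table. The S1pr4 region holds 0. The KLF core was found in Klf2, at position -19 counted back from the start, and in S1pr4, at -107. It was also found in Rgs2, at -217, and in neither Foxo1 nor Cd44, and 52.0% of all regions hold it. Neither GTAAACA, the core of FOXO sites (3.17% of all regions), nor TGANTCA, the AP-1 site (6.75%), was found on either strand in the 5 genes with a region in the table, Foxo1, Klf2, S1pr4, Cd44 and Rgs2. A match of letters is a description and not a bound site.

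S1pr1, the receptor for exit from tissue (chromosome 3, 115710433 to 115715072, minus strand, GRCm38), was nearly lost from aged cultures. It had 0, 37 and 0 counts in aged libraries 1 to 3, which is 0, 2.49 and 0 CPM, against 299, 670 and 243 counts, or 15.6, 27.3 and 12.4 CPM, in young libraries 1 to 3. The groups did not overlap, and the lowest young library held more than 6 times the counts of the highest aged one. The mean was 0.831 ± 1.44 CPM in aged and 18.4 ± 7.85 CPM in young libraries (SD, n = 3 each). The log2 change was -4.47 ± 1.32 (SE; adjusted p = 0.0359, edgeR), a fitted fold of 22.1 lower in aged. Of all tested genes 1.28% had a larger fitted fall. In young cultures S1pr1 stood near the middle of the tested genes, with 47.7% of them lower, and in aged cultures 4.62% were lower.

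The size and the call of this fall rest on few libraries. It was lost without aged library 1 (log2 change of -3.89, adjusted p = 0.0544), aged library 3 (-3.88, 0.0612), young library 1 (-4.56, 0.0825), young library 2 (-4.06, 0.135) or young library 3 (-4.66, 0.0664), in DESeq2 (-4.43, 0.162) and when counts were corrected for length and GC content of the transcripts (-4.07, 0.0624). Without aged library 2 the 2 aged libraries left are both at 0 and the fitted value became -11.44 (adjusted p = 0.000716), which depends on the fit and is no measured fold. It was -6.27 with the replicate block and -7.02 in limma-voom, both past the threshold. No 75-base stretch of the S1pr1 transcript occurs in a transcript of another gene, so reads of this length need not have been shared with its paralogs.

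S1pr4, a second S1P receptor found mostly on blood cells (chromosome 10, 81497747 to 81500132), had 38.5, 32.5 and 25.1 CPM in aged libraries 1 to 3, against 22.0, 27.4 and 28.8 CPM in young libraries 1 to 3. The groups overlapped. Its log2 change of 0.30 ± 0.29 (SE) did not pass the test (adjusted p = 0.551, edgeR), and the 95% interval was -0.35 to 0.94. Scaled by library totals alone, its sign turned, to -0.12. S1pr2, a receptor that restrains migration, was at 41.1 ± 12.9 CPM in aged and 45.0 ± 12.9 CPM in young libraries (SD, n = 3 each; log2 change -0.13 ± 0.31 (SE), adjusted p = 0.828, edgeR). Its sign turned after the length and GC correction (0.64), without aged library 3 (0.0855) and without young library 2 (0.0451).

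S1pr3 and S1pr5 did not pass the filter. S1pr3 had 0 counts in the aged libraries and 36, 0 and 77 counts in young libraries 1 to 3. S1pr5 had 0, 8 and 0 counts in aged libraries 1 to 3 and 0 in the young libraries. Without young library 2, S1pr3 passed the filter and was called lower in aged.

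Set against the other receptors of the same library, which removes the scaling, S1pr1 separated the groups. The shares use the same S1pr1 counts as above and are no separate test of its fall. Of the counts of the 5 S1P receptor genes, S1pr1 took 0%, 2.80% and 0% in aged libraries 1 to 3, against 22.3%, 24.9% and 13.0% in young libraries 1 to 3. The exact 95% binomial interval of aged library 2 was 1.98 to 3.83%, that of young library 3 was 11.6 to 14.7%, and 0 counts allow up to 0.248% and 0.361% in aged libraries 1 and 3 (3 counts of the total). These limits cover counting error only, since reads are not independent molecules. Per kilobase of transcript, the S1pr1 to S1pr4 ratio was 0.0601 in aged library 2 and 0 in the other 2 aged libraries, against 0.555, 0.781 and 0.336 in young libraries 1 to 3. S1pr4 made up 59.1 to 71.2% of the receptor level per kilobase in aged and 39.5 to 48.8% in young libraries.

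**Figure D3:**
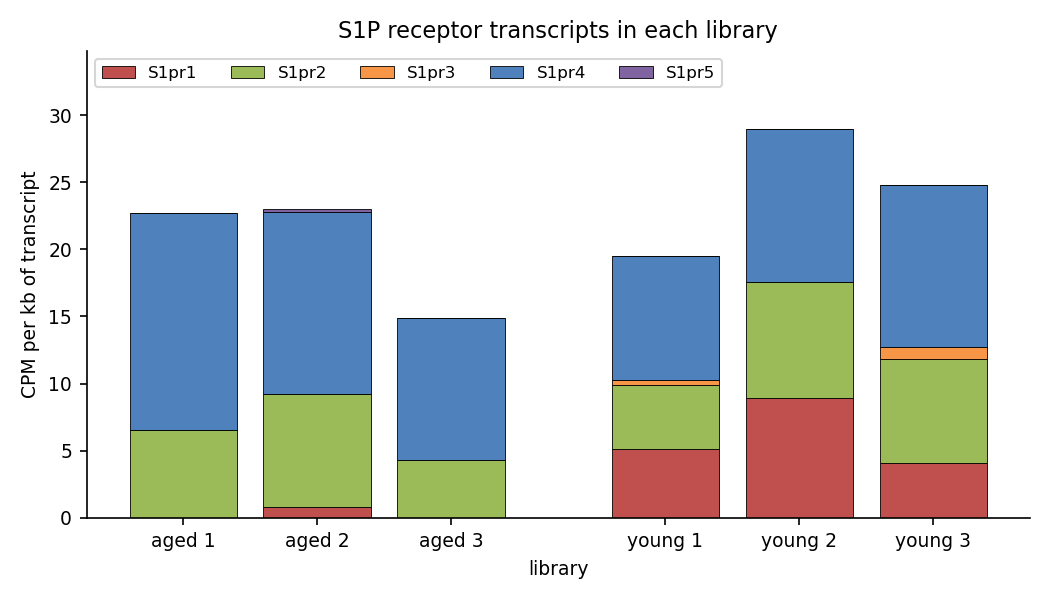
Stacked bars give the CPM per kilobase of transcript of the 5 S1P receptor genes in each library, aged on the left. The S1pr1 segment is 4.06 to 8.95 in the young bars, 0.818 in aged library 2 and missing in aged libraries 1 and 3, while the S1pr4 and S1pr2 segments are present in all 6.

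Markers of other cells that carry S1P receptors were counted beside this fall. The fibroblast and pericyte list summed to 0 to 0.202 CPM in aged and 1.42 to 9.32 CPM in young libraries, with Pdgfra and Rgs5 at 0, and its Pdgfrb was highest in young library 2, as S1pr1 was. Its part in the S1pr1 result was not tested. The endothelial list ran the other way, at 125.7 to 163.2 CPM in aged and 66.6 to 101.9 CPM in young libraries, nearly all of it from Pecam1, and Cdh5, Cldn5 and Kdr had 0 counts. T cell markers summed to 6.76 to 14.7 CPM in aged and 6.78 to 13.0 CPM in young libraries, with Cd3e at 0. Microglial and macrophage markers summed to 57.9 to 95.8 CPM in aged and 5.19 to 15.4 CPM in young libraries, with Csf1r and C1qa at 0 in all 6. Tmem119 (36.2 to 67.5 CPM in aged and 0 to 1.91 CPM in young libraries), P2ry12 and Lyz2 were higher in aged libraries, while mean levels of Adgre1 (0 in aged and 2.60 CPM in young libraries), Cx3cr1 (0.466 and 3.76 CPM in aged and young libraries) and C1qb were lower. Their part in the results was not tested.

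Genes that make, break down or move S1P included several that were higher in aged cultures. Of 12 listed, 10 were tested, 5 rose and 0 fell, with a median log2 change of 0.52. Over all tested genes 11.2% rose and 8.14% fell, with a median of -0.10. Over the 17 alternative settings 4 or 5 rose and 0 fell. Sphk1, a kinase that makes S1P from sphingosine, had 70.2, 63.0 and 22.9 CPM in aged libraries 1 to 3, against 4.33, 2.16 and 0 CPM in young libraries 1 to 3, with no overlap (log2 change 4.59 ± 0.96 (SE), adjusted p = 0.00666, edgeR). The size rests on low young counts: the log2 change was 5.57 without young library 1 and 6.13 in limma-voom. Sphk2, the second kinase, was at 39.4 ± 4.28 CPM in aged and 42.3 ± 8.12 CPM in young libraries (SD, n = 3 each) and did not pass.

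The other genes that rose act at several points of the S1P pathway. Plpp1 and Plpp2, lipid phosphatases that can remove the phosphate of S1P and are listed under their older symbols Ppap2a and Ppap2c, rose by 1.67 and 2.04 on the log2 scale. Asah1, the acid ceramidase that frees sphingosine, rose by 1.22, and Cib1, which brings SPHK1 to the membrane, by 0.57. The S1P lyase Sgpl1 and the phosphatase Sgpp1 did not pass, with log2 changes of -0.39 and 0.47. The exporters were low: Spns2 averaged 1.04 CPM in aged and 1.54 CPM in young libraries, and Mfsd2b did not pass the filter.

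G proteins and proteins that switch receptors off changed in both directions. Of 13 tested, 2 rose and 5 fell (median log2 change -0.26), where 11.2% and 8.14% of all tested genes did so. Gna13, a G protein used by S1PR2, rose to 252.1 ± 3.82 CPM in aged libraries, against 146.7 ± 20.1 CPM in young libraries, and Rac2, a GTPase of leukocyte movement, rose to 1444 ± 81.9 CPM, against 1018 ± 60.6 CPM (SD, n = 3 each). Dnm2, the dynamin that pinches off endocytic vesicles, fell by 0.77 and Dock2, an activator of Rac, by 1.28 on the log2 scale. Gnai2, the abundant inhibitory G protein through which S1PR1 signals, was at 729.9 ± 68.3 CPM in aged and 792.9 ± 48.5 CPM in young libraries (SD, n = 3 each) and did not pass. Gnai3, of the same family, fell by 0.59 on the log2 scale (adjusted p = 0.0484, edgeR). Arhgef1 fell by 0.88 (adjusted p = 0.0294, edgeR) and Grk2, listed as Adrbk1, by 0.74 (0.0473). The counts rested on single libraries: 2 rose and 1 fell without aged library 1 or young library 2, 2 and 2 without aged library 3, and 1 and 0 without young library 1. The call of Dnm2 was lost without aged library 3 or young library 1 or 2 (adjusted p of 0.0518 to 0.0736), that of Rac2 without young library 1 (0.0601), and that of Dock2 without aged library 1 (0.0510) or young library 1 (0.0895) and with the correction (log2 change -0.57, 0.278). Gna13, at a log2 change of 0.78, was at 1.38 with that correction and the replicate block together. After the length and GC correction 2 rose and 1 fell, and when scaled by library totals alone 0 rose and 8 fell, and Gna13 (0.37, adjusted p = 0.0883) and Rac2 (0.0863, 0.612) were no longer called.

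Foxo1 (chromosome 3, 52268336 to 52353221, plus strand), the factor upstream of Klf2, fell to 7.55, 10.9 and 10.3 CPM in aged libraries 1 to 3, against 22.3, 38.6 and 25.4 CPM in young libraries 1 to 3. The groups did not overlap, and young library 2 was the highest, as it was for S1pr1. The log2 change was -1.59 ± 0.38 (SE; adjusted p = 0.0129, edgeR), a fitted fold of 3.00 lower in aged. The call was lost with that length and GC correction (log2 change of -1.11, adjusted p = 0.0647) and without young library 2 (-1.31, 0.0870). Foxo1 has the longest transcript of the 8 genes (8665 bases), in length class 5 of 5, the longest, whose median log2 change over tested genes was -0.51. From the shortest class to the longest the medians were 0.50, 0.03, -0.21, -0.36 and -0.51. In the shortest class 733 genes were called higher and 77 lower, and in the longest 56 higher and 290 lower. A predicted gene on the opposite strand, Gm20402, overlaps 7.78% of the Foxo1 exon length, which leaves that part of the count uncertain.

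Klf2 (chromosome 8, 72319033 to 72321656, plus strand), the factor that drives S1pr1, had 11.3, 5.86 and 10.2 CPM in aged libraries 1 to 3, against 15.1, 19.6 and 3.36 CPM in young libraries 1 to 3. The groups overlapped, and young library 3 was the lowest of the 6. The young libraries spread 5.84-fold, the widest among the 8 genes in that group. The log2 change of -0.47 ± 0.63 (SE) did not pass (adjusted p = 0.675, edgeR), with a 95% interval from -1.87 to 0.92, and it was 0.0046 without young library 2. Within libraries, the Klf2 to Foxo1 ratio per kilobase was 7.04, 2.52 and 4.66 in aged libraries 1 to 3, against 3.18, 2.38 and 0.619 in young libraries 1 to 3, and the groups overlapped.

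Around these factors, 21 genes were listed and 19 tested (median log2 change -0.39). Of the 19, 0 rose and 3 fell, where 11.2% and 8.14% of all tested genes did so. Lower were 9 at an unadjusted p under 0.05 in edgeR, 5 in DESeq2 and 4 in limma-voom, with 0 higher in each. Foxp1, which competes with FOXO1 for its sites in T cells, fell to 5.96, 11.3 and 11.1 CPM in aged libraries 1 to 3, against 40.1, 33.3 and 39.5 CPM in young libraries 1 to 3 (log2 change -1.99 ± 0.35 (SE), adjusted p = 0.00269, edgeR). Map3k3, a kinase of the pathway that induces Klf2 in endothelium, fell by 1.74, and Akt1, which phosphorylates FOXO1 and keeps it out of the nucleus, by 0.60. The call of Akt1 was lost without aged library 1, 2 or 3 or young library 1 or 2, with adjusted p-values of 0.0706 to 0.172. When scaled by library totals alone 8 of the 19 fell. After the length and GC correction 0 rose and 3 fell, and the median log2 change turned to 0.09. With the replicate block added 0 rose and 2 fell, with a median of 0.0023. Foxo3 and Foxo4 were low in both groups, at 4.97 and 3.17 CPM in aged and 5.48 and 3.07 CPM in young libraries.

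Of 5 further genes known as targets of FOXO1 or KLF2, 3 were tested and 0 rose or fell in edgeR, where 19.4% of all tested genes did. The count was also 0 at an unadjusted p under 0.05, in DESeq2 and in limma-voom. Ccr7, the chemokine receptor for entry into lymphatics, was at 138.3 ± 25.7 CPM in aged and 176.3 ± 11.2 CPM in young libraries, and Il7r at 122.2 ± 2.85 and 97.7 ± 26.9 CPM in aged and young libraries (SD, n = 3 each). Il6ra did not pass the filter. When scaled by library totals alone 2 of the 3 fell.

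Cd69 (chromosome 6, 129267325 to 129275436, minus strand), the retention receptor, had 16.6, 20.5 and 42.0 CPM in aged libraries 1 to 3, against 61.6, 51.9 and 45.5 CPM in young libraries 1 to 3. Each aged library was below each young one, but aged library 3 came within 4 CPM of young library 3. The mean was 26.4 ± 13.7 CPM in aged and 53.0 ± 8.10 CPM in young libraries (SD, n = 3 each). The log2 change of -1.01 ± 0.35 (SE) did not pass (adjusted p = 0.0685, edgeR), with a 95% interval from -1.78 to -0.24. It passed in 6 of 17 alternatives, among them without aged library 3 (-1.52, adjusted p = 0.00774), in DESeq2 (-0.98, 0.0370) and after the length and GC correction (-1.16, 0.0417). Per kilobase and within a library, Cd69 exceeded S1pr1 14.8-fold in aged library 2, and S1pr1 was at 0 in the other 2. In young libraries 1 to 3 it exceeded S1pr1 7.13-, 3.44- and 6.65-fold. These folds use the principal annotated transcript of Cd69 (1687 bases). All its annotated exons span 6509 bases, and by that length the folds would be smaller and Cd69 need not exceed S1pr1 in every library.

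**Figure D4:**
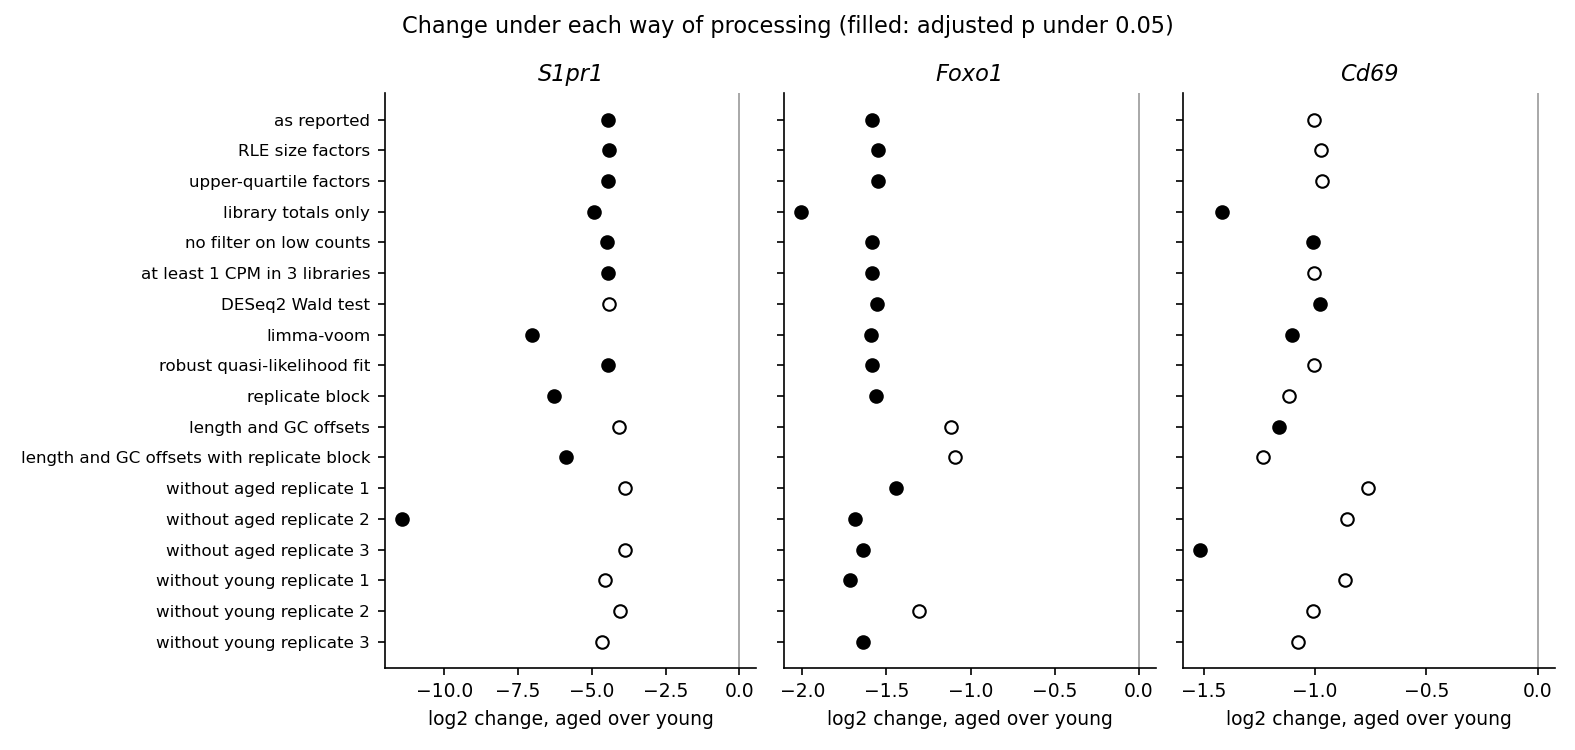
The log2 change of aged over young of S1pr1, Foxo1 and Cd69 is plotted for the reported fit (top) and 17 alternatives, filled where the adjusted p is under 0.05. All points lie below 0, the call of S1pr1 is lost in 7 alternatives and that of Foxo1 in 3, and Cd69 is called in 6.

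Cd69 lies in a cluster of C-type lectin genes on chromosome 6. Of 12 listed neighbours and binding partners 6 were tested (median log2 change 0.37). Of the 6, 2 rose and 0 fell, where 11.2% and 8.14% of all tested genes did so. At an unadjusted p under 0.05 in edgeR 3 were higher and 0 lower, in DESeq2 3 and 0, in limma-voom 2 and 0. Clec2i (128887588 to 128898167), a lectin of that cluster, had 8.55, 23.7 and 17.1 CPM in aged libraries 1 to 3, against 1.04, 0.611 and 0.915 CPM in young libraries 1 to 3 (log2 change 4.26 ± 0.65 (SE), adjusted p = 0.00111, edgeR). Clec2d, the gene nearest to Cd69 in this list (129180615 to 129186534), did not pass, at 21.1 ± 6.23 CPM in aged and 15.3 ± 6.72 CPM in young libraries (SD, n = 3 each). Lgals1, which encodes the CD69 ligand galectin-1, rose by 1.0 on the log2 scale to 13680 CPM in aged libraries, against 6834 CPM in young libraries. After the length and GC correction its log2 change was 0.24 (adjusted p = 0.0302).

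Cd44 (chromosome 2, 102811141 to 102901665, minus strand), the hyaluronan receptor, had the log2 change nearest to 0 of the 8. It had 67.4, 62.7 and 72.7 CPM in aged libraries 1 to 3, against 62.4, 95.1 and 58.3 CPM in young libraries 1 to 3. All 3 aged values lay within the range of the young ones, and young library 2 stood above the rest. The log2 change was -0.09 ± 0.23 (SE; adjusted p = 0.841, edgeR) with a 95% interval from -0.59 to 0.42. Its sign turned after the length and GC correction (0.36) and without young library 2 (0.18).

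Genes that work with CD44 changed in both directions. Of 19 listed, 12 were tested (median log2 change -0.05). Of the 12, 3 rose and 3 fell, where 11.2% and 8.14% of all tested genes did so. Ezr, Rdx and Msn, the ezrin, radixin and moesin proteins that tie CD44 to the actin cortex, all fell, by 1.53, 1.62 and 0.66 on the log2 scale. Msn lay near the threshold (adjusted p = 0.0433, edgeR). Ezr had 45.4, 39.7 and 49.7 CPM in aged libraries 1 to 3, against 133.6, 169.3 and 86.6 CPM in young libraries 1 to 3, with no overlap (adjusted p = 0.00159, edgeR). Ezr was called lower in the 17 alternatives too, but 4 list genes rose and 1 fell without young library 1, and 3 rose and 2 fell without aged library 1 or 2 or young library 2. With the replicate block or the length and GC correction, also 3 rose and 2 fell. Spp1, which encodes the CD44 ligand osteopontin, rose to 123.8 ± 17.5 CPM in aged libraries, against 25.5 ± 14.8 CPM in young libraries (log2 change 2.28, and 2.88 without young library 3). Srgn, the proteoglycan serglycin that CD44 can bind, rose to 7677 ± 1361 CPM, against 3917 ± 996.2 CPM (SD, n = 3 each). Selplg, the P-selectin ligand, rose by 0.59, a call that was lost when scaled by library totals alone (0.17, adjusted p = 0.259). Has1, Has2 and Has3, enzymes that make hyaluronan, had 0 to 5 counts in each of the 6 libraries and did not pass the filter.

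Rgs1 (chromosome 1, 144242296 to 144249242, minus strand), which damps chemoattractant receptors, was the most abundant of the 8. It had 237.4, 267.5 and 229.8 CPM in aged libraries 1 to 3, against 370.0, 251.2 and 401.7 CPM in young libraries 1 to 3. The groups overlapped through young library 2, which was below aged library 2. The log2 change of -0.48 ± 0.18 (SE) did not pass (adjusted p = 0.0938, edgeR), with a 95% interval from -0.88 to -0.08. It passed without young library 2 (-0.65, adjusted p = 0.0195) and when scaled by library totals alone (-0.89, 0.00458).

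Rgs2 (chromosome 1, 143999338 to 144004161, minus strand), which acts mainly on Gq signals, had 8.55, 19.1 and 14.6 CPM in aged libraries 1 to 3, against 10.1, 7.73 and 15.7 CPM in young libraries 1 to 3. The groups overlapped. The log2 change of 0.33 ± 0.48 (SE) did not pass (adjusted p = 0.703, edgeR), with a 95% interval from -0.73 to 1.39, and its sign turned when scaled by library totals alone (-0.0809). Within libraries, the Rgs1 to Rgs2 ratio per kilobase was 21.9, 11.0 and 12.4 in aged libraries 1 to 3, against 28.8, 25.6 and 20.2 in young libraries 1 to 3. Only aged library 1 reached into the young range.

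Of the other RGS genes, 10 of 17 were tested and 0 were called in edgeR, where 19.4% of all tested genes were. At an unadjusted p under 0.05 in edgeR 3 were higher and 0 lower (median log2 change 0.85). DESeq2 called 1 higher and 0 lower and limma-voom 3 higher and 1 lower. Leaving out young library 1 or young library 3 gave 2 higher and 0 lower, and leaving out aged library 2 gave 0 and 1. Rgs11 came nearest, at 17.1, 24.4 and 9.59 CPM in aged libraries 1 to 3, against 2.45, 0 and 0 CPM in young libraries 1 to 3 (log2 change 4.39 ± 1.41 (SE), adjusted p = 0.0513, edgeR), and it passed in 8 of 17 alternatives. Its size rests on young library 1, the single young library with counts, without which the fitted value was 11.27 and no measured fold, and it was 6.59 with the replicate block and 7.20 in limma-voom. Rgs18, which lies in the same stretch of chromosome 1 as Rgs1 and Rgs2 (144752683 to 144775435), had 23.3, 37.2 and 28.3 CPM in aged libraries 1 to 3, against 10.6, 2.93 and 0 CPM in young libraries 1 to 3, and did not pass (adjusted p = 0.101). Rgs18 was named after its values were seen. Rgs13 and Rgs21 of that stretch had 0 counts in all 6 libraries.

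Among regulators and markers of tissue residency, 15 were listed and 11 tested, with Zfp683 not analysed here (median log2 change -0.13). Of the 11, 0 rose and 2 fell, where 11.2% and 8.14% of all tested genes did so. At an unadjusted p under 0.05 in edgeR 2 were higher and 3 lower, in DESeq2 0 and 2, in limma-voom 1 and 2. Notch2, a receptor upstream of residency programmes in T cells, had 8.48, 9.23 and 14.2 CPM in aged libraries 1 to 3, against 70.6, 73.2 and 35.2 CPM in young libraries 1 to 3 (log2 change -2.49 ± 0.36 (SE), adjusted p = 0.000788, edgeR). Bhlhe40, a transcription factor of tissue lymphocytes, fell by 0.99, a call that was lost after the length and GC correction (-0.59, adjusted p = 0.117) and without aged library 2 or 3 or young library 1 or 2 (0.0510 to 0.0797). Without aged library 2 or young library 1, 0 rose and 1 fell, and without young library 2, 1 rose and 1 fell. Runx3, Prdm1 and Cxcr6 did not pass, with log2 changes of 0.41, -0.70 and 0.16, and Xcl1 and Itga1 did not pass the filter.

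**Figure D5:**
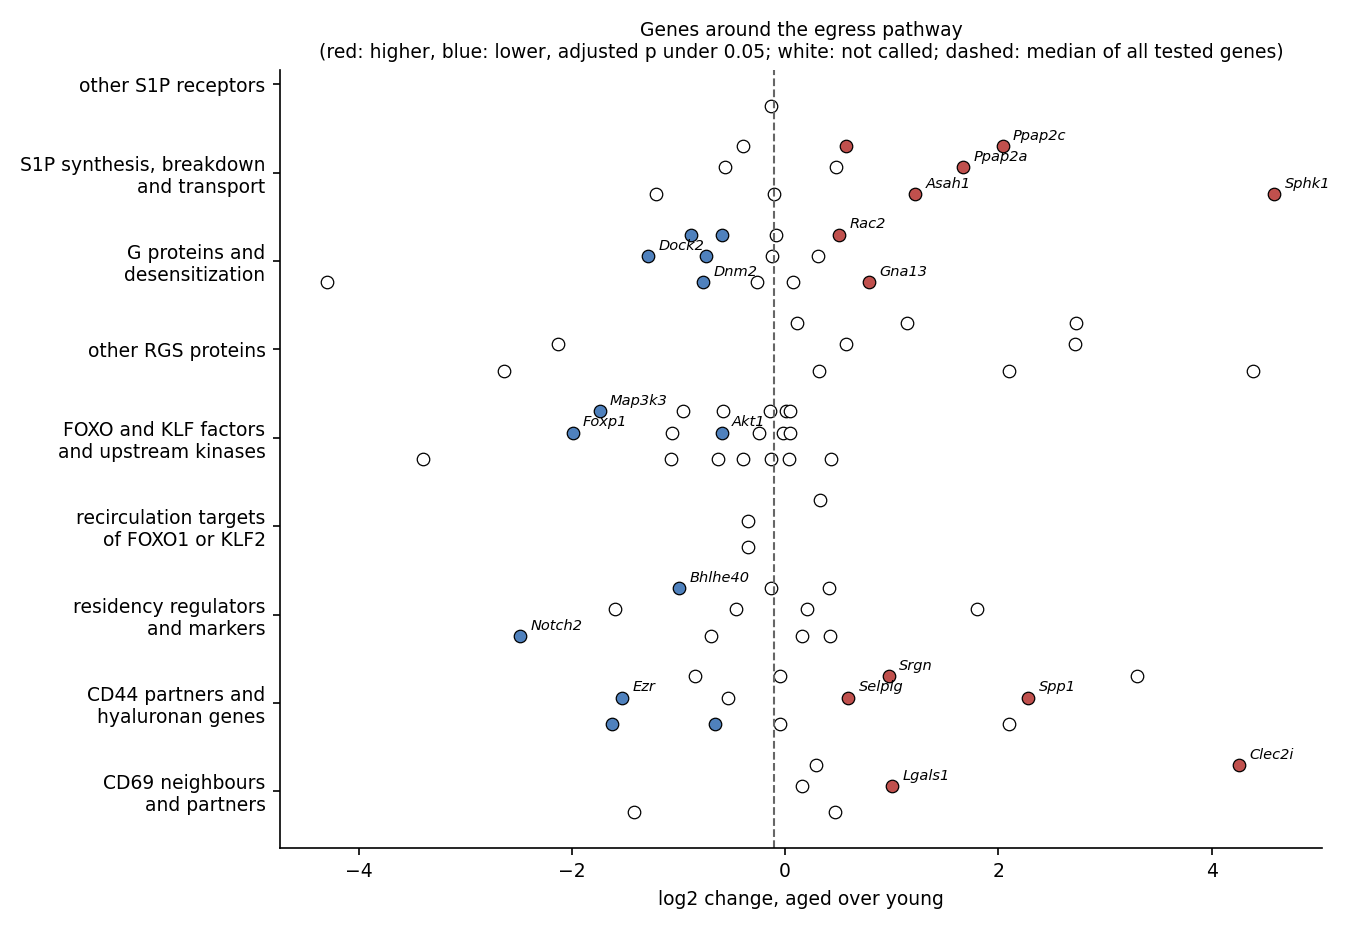
Each point is the log2 change of aged over young of a tested gene in one of 9 lists around the egress pathway, red where it rose, blue where it fell and white where the adjusted p was not under 0.05, with the median of all tested genes dashed. S1P metabolism holds red points only among its called genes, up to Sphk1 at 4.59, and the FOXO and KLF list holds blue points only, down to Foxp1 at -1.99.

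Compared per kilobase of the principal annotated transcript, the order of levels among the 8 genes was nearly the same in both groups. The exceptions were the place of S1pr1 and an exchange of S1pr4 and Cd44. Rgs1 led, at 63.8 ± 5.20 in aged and 88.8 ± 20.7 CPM per kilobase in young libraries, followed by Cd69 at 15.6 ± 8.13 and 31.4 ± 4.80. S1pr4 stood at 13.4 ± 2.81 and 10.9 ± 1.5, Cd44 at 12 ± 0.893 and 12.8 ± 3.59, and Klf2 at 4.95 ± 1.57 and 6.87 ± 4.54, each in aged and young libraries. Rgs2 was at 4.66 ± 1.75 and 3.70 ± 1.35 and Foxo1 at 1.11 ± 0.206 and 3.32 ± 0.997. S1pr1 was last in aged libraries, at 0.273 ± 0.472, and in young libraries it stood at 6.04 ± 2.58, between Klf2 and Rgs2 (SD, n = 3 each). Neighbours in this order were often within each other's spread: Cd69, S1pr4 and Cd44 overlapped in aged libraries, as did Klf2 and Rgs2, and in young libraries Cd44, S1pr4 and Klf2 overlapped from one to the next, as did Klf2, S1pr1, Rgs2 and Foxo1. The order also depends on the length used. Over all annotated exons Cd69 spans 6509 bases, against 1687 in its principal transcript, and Rgs1 6947, against 3841. Which length fits the counts is not known, and by the longer one Cd69 would stand lower.

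Among 11434 genes with a mean of at least 1 CPM, those most like each member over the 6 libraries were named by the root mean square difference of their centred log2 CPM. Efnb1 (0.46) and Ptprg (0.52) came nearest to S1pr1, where the median gene differed by 3.29, and both share its pattern of 0 counts in aged libraries 1 and 3. Zc3h3 (0.07) and Ppp1r16b (0.15) came nearest to Foxo1, Nde1 (0.11) and Lpgat1 (0.11) to Cd69, and Mbtps1 (0.18) and Tkfc (0.21) to Klf2. Ets1 (0.04) and Wdr33 (0.05) were nearest to Cd44, Snx15 (0.09) and Tmem259 (0.09) to S1pr4, and Tgoln1 (0.08) and Aifm1 (0.10) to Rgs1. For Rgs2 they were 5830432E09Rik (0.13) and Ncbp2 (0.15). With 6 libraries, such likeness describes these profiles only.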

How the data were processed

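RNA of 6 libraries of cultured brain ILC2 was read as single ends of 75 bases. The authors deposited raw counts per gene symbol. Tools in the submitters' processing notes are STAR 2.5.3a and Cufflinks 2.0, beside bcl2fastq 2.20.0.422, DESeq2 1.1 and FastQC 1.0.0, with mm10 as the build. How reads were counted, against which annotation and with what strand rule is not given in the sources used here, so overlapping genes cannot be told apart by strand. Libraries were grouped by the age in their titles. Symbols of 27 rows had been turned into dates (0.153% of counts). They stayed in library sizes and tests.

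The tests were run with edgeR 4.0.16 under R 4.3.3 (filterByExpr with a minimum count of 10 and minimum total of 15, TMM, glmQLFit and glmQLFTest), which left 11805 genes. The standard error is the log2 change divided by the root of F. Alternatives used DESeq2 1.42.0, limma 3.58.1 (voom), other scalings and filters, a replicate block, offsets for transcript length and GC content (a loess with a span of 0.3 per library) and each library left out. On counts simulated with 200 changed genes the test recovered 20% of 2-fold and 58.3% of 4-fold changes, and 4.76% of its calls were false. In the data 2286 of 11805 genes were called, so these rates need not hold there. A gene that did not pass may still have changed. Positions and lengths (APPRIS principal transcript, otherwise the longest) came from GENCODE vM21 (GRCm38), and start regions of 5 of the 8 genes from RefSeq (GRCm38.p6). The members, lists and tests were chosen with earlier results of these data known. Named genes are all 8 members, up to 4 called genes per list by smallest p (otherwise the 1 with the smallest p) and the 2 genes most like each member. Other list genes were named after their values were seen.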

Additional observations from a re-analysis of the deposited data

How the results depend on the processing

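Over 17 alternatives, S1pr1, Foxo1, Cd69 and Rgs1 stayed lower in aged libraries. The call of S1pr1 was lost in DESeq2 (-4.43) and with the length and GC correction (-4.07), and that of Foxo1 with that correction alone (-1.11) or with the replicate block (-1.09). Cd69 was called with library totals (-1.42), no filter (-1.01), DESeq2 (-0.98), limma-voom (-1.10) and the length and GC correction (-1.16), and Rgs1 with library totals (-0.89). Directions turned for Cd44 with the length and GC correction, alone (0.36) or with the block (0.41), and without young library 2 (0.18), for Klf2 without young library 2 (0.0046), and with library totals for Rgs2 (-0.0809) and S1pr4 (-0.12). S1pr2, whose alternatives were chosen after seeing the data like those of all list genes, turned with the correction alone (0.64) or with the block (0.65), without aged library 3 (0.0855) and without young library 2 (0.0451).

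With 1 library left out, log2 changes ran from -11.44 to -3.88 for S1pr1, -1.72 to -1.31 for Foxo1, -1.52 to -0.76 for Cd69 and -0.65 to -0.31 for Rgs1. Klf2 ran from -0.89 to 0.00, Cd44 from -0.19 to 0.18, Rgs2 from 0.05 to 0.68 and S1pr4 from 0.14 to 0.44, and S1pr2 from -0.37 to 0.0855. Of the 8 members, 4 were called with library totals, 1 with the correction alone and 1 with the block added, and 1 to 2 with a library left out. Over all genes 2286 were called, 3098 with library totals (718 higher and 2380 lower, against 1325 and 961, with a median log2 change of -0.52), 1459 with correction and block, and 1314 to 2141 with a library left out.

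Same-numbered libraries deviated together only weakly (correlations of 0.0196, 0.0088 and 0.0414 over genes), and with 3 libraries per group this cannot decide whether the numbers pair them. Every aged library correlated best with its own number, while young library 2 correlated best with aged library 1. The replicate block alone left 2008 genes called and S1pr1 at -6.27. Of 374 values of list genes under alternatives, 338 kept direction and side of the threshold, 23 lost the call, 9 gained it and 4 turned. Depth limits S1pr1 in aged libraries, where 1 count is 0.0635 to 0.0673 CPM.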
